A study of Caenorhabditis elegans with 4 samples.

Results

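Binding regions of NHR-237, a protein of the nuclear hormone receptor family, on chromosomes I, II, III and IV of Caenorhabditis elegans were described from a list that combines both replicates of a chromatin immunoprecipitation sequencing (ChIP-seq) experiment. A region belonged to the set if the combined list placed it on a chromosome other than X, V or the mitochondrial chromosome, which gave 217 of 322 rows. Overlapping rows were joined, and this left 211 regions of 311 in the whole combined list, with 57 on chromosome I, 53 on II, 63 on III and 38 on IV. The chromosome alone chose the regions, so their positions within chromosomes, their spacing and their strength were open to description and test.

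The series holds 4 samples of whole hermaphrodite larvae at the L2 stage, 2 ChIP samples and 2 input samples, all grown at 20 °C. All of them, the inputs included, come from strain OP228, which carries the unc119(ed3) allele and the transgene wgIs228, brought in by bombardment and outcrossed 3 times. The transgene holds nhr-237 fused to TY1, EGFP and FLAG, together with unc119. Chromatin crosslinked with 2% formaldehyde was precipitated with anti-GFP antibody, and the input is sonicated chromatin kept back before that step. No sample from worms without the tagged protein was among those analysed here, whole larvae do not show which cells were bound, and no label tells if the 2 replicates came from separate cultures.

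Nuclear hormone receptors are transcription factors with a zinc finger domain that contacts DNA and a domain that can bind small lipophilic ligands such as steroids and fatty acids. The family is greatly expanded in nematodes, and for most of its worm members no ligand is known. The members that have been studied act in fat metabolism, moulting, dauer formation and responses to nutrients and toxins. Worm autosomes have a gene-dense centre that recombines little, flanked by arms that hold more repeats and recombine more. The gene table at hand belongs to another genome build than the lists (WS220), so no gene, start site or DNA sequence is given for any region.

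Strength is given in 2 forms. The score of a region is read as the −log10 of a q value, the false discovery rate of the peak caller, and the place is the order number in the region's name, where 1 is the best placed. A partner is the best placed region of a replicate list that overlaps by at least 1 bp. The replicate 1 list holds 8323 nuclear regions and the replicate 2 list 21482, so that the same number stands further down its list in replicate 1 than in replicate 2.

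The best placed region on these chromosomes lay on III at 3867395 to 3867718, at place 10 of the combined list. It stood at place 12 in replicate 1 and place 11 in replicate 2. The next was II 5844683 to 5845296, at place 16, with partners at place 15 in replicate 1 and place 25 in replicate 2. It was joined from rows at places 16 and 85 that share 145 bp. IV 4749920 to 4750217 followed at place 17 (partners at places 20 and 21 in replicates 1 and 2), then III 10758982 to 10759281 at place 18 (place 23 in both replicates). All of these held similar places in both replicates, but the same ChIP samples made the combined places. Early partner places of the best placed regions, here and below, thus follow from how they were picked.

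Chromosome III supplied 10 of the 20 best placed regions, IV 6, and I and II 2 each. The others on III were 7854465 to 7854761 at place 19, with partners at place 17 in replicate 1 and 31 in replicate 2, and 12612493 to 12612626 at place 26, with partners at 34 and 29. Further regions on III were 13643507 to 13643770 at place 27 (partners at 32 and 37), 4899618 to 4900153 at place 30 (35 and 42) and 12905012 to 12905199 at place 33 (49 and 44). The last of this chromosome were 5678984 to 5679196 at place 37 (43 and 59), 10989270 to 10990008 at place 38 (66 and 43) and 3456309 to 3456493 at place 39 (63 and 56). None of these partners lay beyond place 66 of its list.

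Chromosome IV held 17249768 to 17249966 at place 28, with partners at place 30 in replicate 1 and 54 in replicate 2. On the same chromosome 17278233 to 17278768 stood at place 40 (partners at 92 and 49). It lay 28.3 kb from the region before it, and both were within the last 2% of the chromosome's span, at 98.6 and 98.8%. IV 654655 to 655190 at place 29 (31 and 53), IV 1658950 to 1659485 at place 36 (71 and 55) and IV 13240608 to 13240745 at place 42 (55 and 62) also belonged to the best placed regions. Chromosome II added 10563390 to 10563607 at place 23 (27 and 33), and chromosome I added 4172083 to 4172638 at place 24 (25 and 48) and 13663259 to 13663478 at place 41 (54 and 69). In all of the 20 best placed regions both partners stood within the first 92 places of their lists. All 20, and their partners, had the top score of their list (a q value of 0.00205 for the combined regions, 0.00185 for replicate 1 partners and 0.00212 for replicate 2 partners), so only the order number separates them, and the score gives no check of that order.

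The first 50 places held 25 of the 211 regions, with 3 on I, 2 on II, 11 on III and 9 on IV. Chromosomes I and II had few regions among these first places and more further down. At places 51 to 100 there were 9 regions on I, 8 on II, 11 on III and 6 on IV, and at places 101 to 200 there were 23, 22, 19 and 7. The median place was 177 on I, 176 on II, 132 on III and 173.5 on IV. Over all 211 regions it was 171, against 141.5 for the 100 joined regions on X and V. Those 100 also had 25 regions within the first 50 places, 22 on X and 3 on V. Within the first 25 places stood 7 of the 211 regions and 18 of the 100. These differences in place were not tested. The highest score of the combined list, a q value of 0.00205 in this reading, was reached by 151 of the 211 regions (71.6%, 95% Wilson interval 65.1 to 77.2%) and by 72 of the 100 joined regions on X and V (72.0%, 62.5 to 79.9%). The difference of −0.44 percentage points did not pass Fisher's exact test (two-sided, adjusted p = 1.0 over the 12 tests made), and 71.4% of all rows of the combined list have this score. Regions tied at this score are not told apart by that test, so it cannot compare strength among the strongest regions. The highest q value among the 211 regions was 0.0253.

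Most regions had the fixed width of 536 bp, and the narrower ones were placed early. There were 187 regions of 536 bp, 18 narrower ones of 134 to 324 bp and 6 that were joined from 2 overlapping rows each, up to 825 bp wide. Of the narrow regions 14 stood within the first 50 places, and their median place was 35 against 185 for regions of 536 bp. The last narrow region was at place 176. They were unevenly shared among chromosomes, with 8 on III, 5 on IV, 3 on II and 2 on I. Narrow regions were not particular to these chromosomes, with 18 of 211 here and 21 of 100 joined regions on X and V. The count on X and V includes regions of 476 and 482 bp that were each joined from 2 rows. On II and I, the joined regions at places 16 (614 bp) and 24 (556 bp) each hold a row narrower than 536 bp. They are not among the 18, so the counts are not fully alike. The partners of all 18 narrow regions had a q value of 0.05 or less, called passing here, in each replicate, against 85.8% in replicate 1 and 73.9% in replicate 2 over all 211 regions. In the first 50 places, where most narrow regions stood, the partners of all 25 regions passed in each replicate whatever their width. The caller's rule for widths is not given in the sources used.

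**Figure D1:**
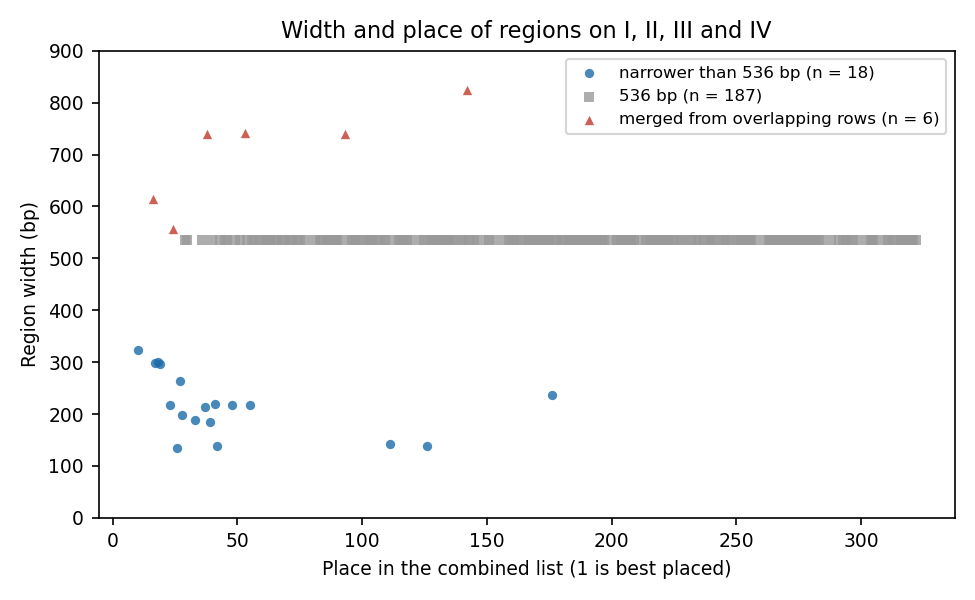
Width of each of the 211 regions on chromosomes I to IV in bp against its place in the combined list, where 1 is the best placed. The 18 narrow regions lie mostly within the first 50 places, while the 187 regions of 536 bp run from place 29 to the end of the list.

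The second question was where the regions lay within their chromosomes. With the span of a chromosome taken as the largest region end on it, the middle 50% held the centres of 96 of 211 regions (45.5%, interval 38.9 to 52.2%), and of 51 of 100 on X and V (51.0%, 41.3 to 60.6%). The difference of −5.50 points did not pass Fisher's exact test (two-sided, unadjusted p = 0.396, adjusted p = 1.0). The share was 43.9% on I, 45.3% on II, 46.0% on III and 47.4% on IV. None of these differed from the other 3 chromosomes by more than 2.28 points, and none passed Fisher's exact test (adjusted p = 1.0 for each). With chromosome V alone for comparison, where 71.1% of regions were in the middle, the difference was −25.6 points (Fisher's exact test, unadjusted p = 0.00453, adjusted p = 0.0544), and with X alone, where 38.7% were, it was 6.79 points (Fisher's exact test, adjusted p = 1.0). The direction also turned with the strongest regions of a single replicate in place of the combined list (0.11 points from replicate 1 and 2.22 from replicate 2), and with the middle 33.3% of the span the difference was −11.5 points (Fisher's exact test, unadjusted p = 0.0474, adjusted p = 0.285).

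Cut into sections of 25% of the span from the left end, the chromosomes held fewest regions in the first and the third section and most in the last. From the first section to the last there were 44, 53, 43 and 71 of the 211 regions, so that the last held 33.6% (interval 27.6 to 40.3%). The last section held 20 of 62 regions on X (32.3%, 22.0 to 44.6%), close to the share on I to IV, and 6 of 38 on V (15.8%, 7.44 to 30.4%), which together made 26.0% on X and V. On chromosome I the last section held 20 of 57 regions, on II 21 of 53, on III 19 of 63 and on IV 11 of 38, the fullest section on I, II and III and level with the second on IV. On chromosome II the first and the third section held 8 regions each, while on I the second section held the fewest, with 11. The sections were looked at after the positions were known, so no test is given for them.

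The replicate lists in full, where weak calls prevail, were more even. On I to IV the last section held 26.1% of 5411 replicate 1 regions and 26.4% of 13673 replicate 2 regions. Among regions that passed a q value of 0.05 it held 30.7% of 264 regions in replicate 1 (interval 25.4 to 36.5%) and 28.5% of 369 in replicate 2 (24.1 to 33.3%). Chromosome II had the highest share in each of the strong lists, with 34.9% in replicate 1 and 38.6% in replicate 2. On chromosome I the replicates differed, at 30.4% in replicate 1 and 22.9% in replicate 2. The full lists also varied by chromosome. In replicates 1 and 2 their last section held 28.4 and 29.1% on II and 28.6 and 27.4% on III. On I it held 24.7 and 24.6%, and on IV 22.9 and 24.9%.

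**Figure D2:**
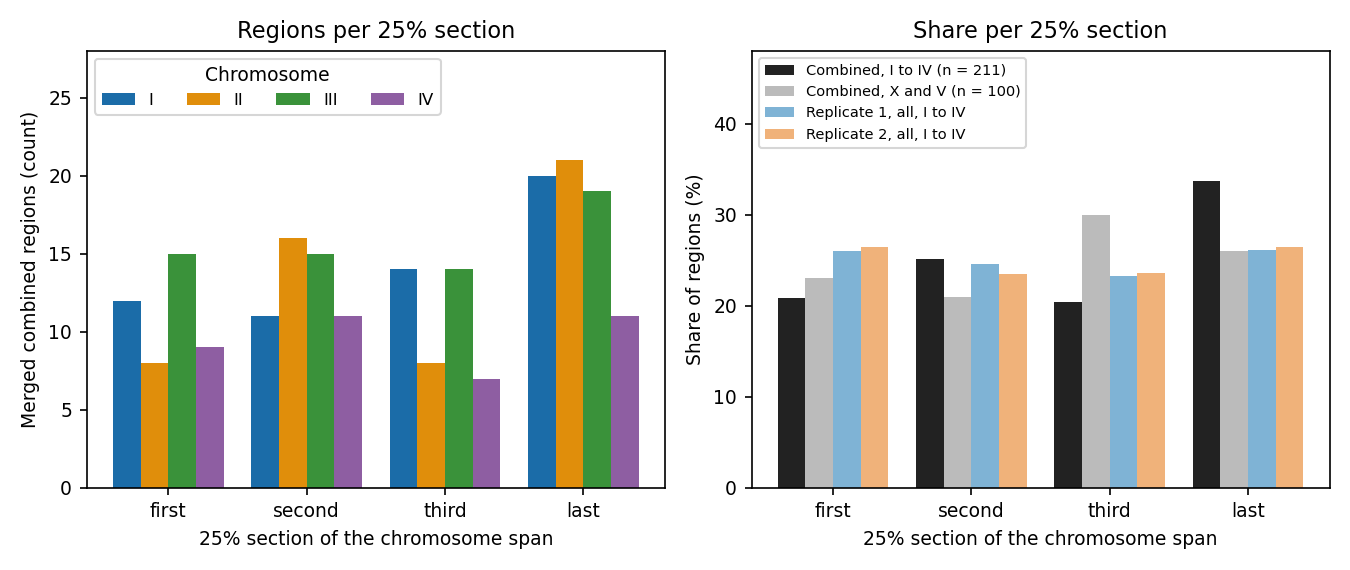
Left, number of regions in each 25% section of the chromosome span for chromosomes I, II, III and IV. Right, share of regions (%) in each section for the 211 combined regions on I to IV, the 100 on X and V, and all regions of each replicate list on I to IV, with the last section at 33.6, 26.0, 26.1 and 26.4%.

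In bins of 1 Mb the densest stretches differed from chromosome to chromosome. On II the bin from 11 to 12 Mb held 9 regions (17.0% of those on II), against 7.68% of the chromosome's replicate 1 regions and 7.65% of its replicate 2 regions. On I the bin from 9 to 10 Mb held 8 regions (14.0%, against 6.48 and 6.55% in replicates 1 and 2). On IV the bin from 4 to 5 Mb held 5 regions (13.2%, against 6.17 and 6.19%). On III 3 bins held 7 regions each (11.1%), from 1 to 2, 4 to 5 and 8 to 9 Mb. In replicates 1 and 2 these bins held 7.94 and 8.09%, 7.36 and 6.44%, and 7.14 and 6.26% of the chromosome's regions. The bin from 9 to 10 Mb on II was the only one of full width with no region. The last bin of I, which covers only 55.3 kb of the span, also held none.

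The longest stretch with no region was 2.00 Mb on chromosome II, from 8561633 to 10563390. It ended at the region at place 23. Within it the replicate 1 list had 183 regions and the replicate 2 list 432, of which 5 in replicate 1 and 9 in replicate 2 passed a q value of 0.05. The longest empty stretches of the other chromosomes were 1.24 Mb on I, 0.933 Mb on III and 1.23 Mb on IV.

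Regions close to each other were concentrated on chromosomes I and III. Of the 211 regions 41 (19.4%, interval 14.7 to 25.3%) had another combined region within 10 kb, measured between facing edges, and 14 of 100 did on X and V (14.0%, 8.53 to 22.1%). On I there were 17 of 57 (29.8%, 19.5 to 42.7%), on III 16 of 63 (25.4%, 16.3 to 37.3%), on II 6 of 53 (11.3%, 5.29 to 22.6%) and on IV 2 of 38 (5.26%, 1.46 to 17.3%). More regions per Mb can bring more close neighbours, and the density was 4.57 regions per Mb on III, 3.79 on I, 3.47 on II and 2.17 on IV. At 10 kb the share was higher on I than on the denser III. Within 5 kb the order of the shares was that of the densities, with 15 of 63 on III (23.8%), 9 of 57 on I (15.8%), 4 of 53 on II (7.55%) and 2 of 38 on IV (5.26%), so that the lead of I rests on gaps between 5 and 10 kb. A matching order does not show how large a share a density would bring, and the density's part in these shares was not tested. The shares were not tested either, because neighbours are not independent. The median distance to the nearest region was 57.5 kb on I, 65.6 kb on III, 117 kb on II and 353 kb on IV.

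**Figure D3:**
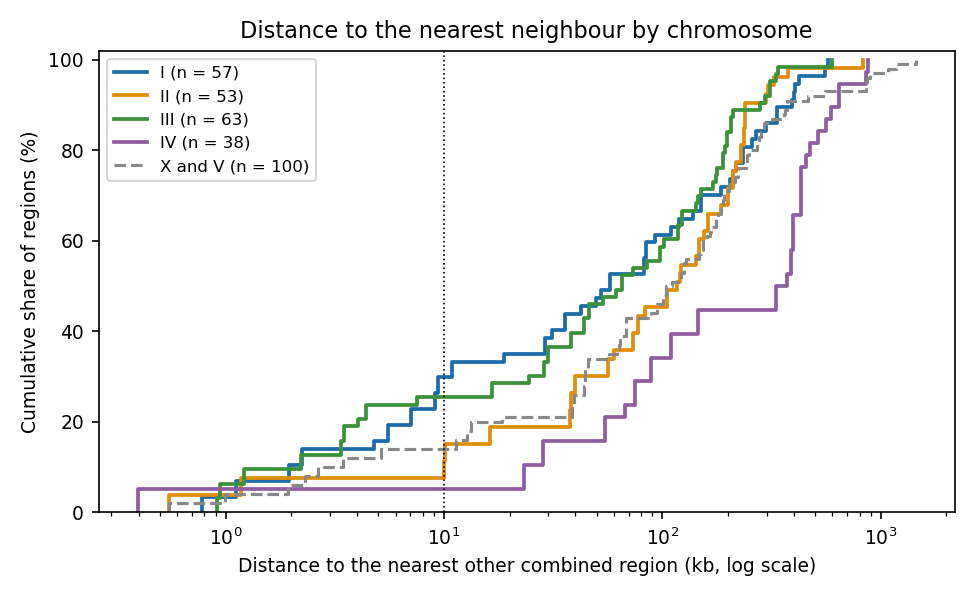
Cumulative share of regions (%) against the distance in kb (log scale) to the nearest other combined region, with a line for each of chromosomes I to IV and a dashed line for X and V. At the dotted line at 10 kb, chromosomes I (29.8%) and III (25.4%) lie above II (11.3%) and IV (5.26%).

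Each replicate taken alone gave the same chromosomes with few neighbours but not the same leader. Among the strongest nuclear regions of each list, as many as the combined list holds, the share with a neighbour within 10 kb was 34.0% on I, 18.6% on III, 2 of 40 on IV and 0 of 49 on II in replicate 1. In replicate 2 it was 20.7% on I, 22.8% on III, 13.0% on II and 3.85% on IV.

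The 41 close regions formed 19 groups, 16 pairs and 3 groups of 3, with 8 groups on I, 3 on II, 7 on III and 1 on IV. Gaps within groups ran from 395 to 9990 bp with a median of 2803 bp, and 5 of the 22 gaps were under 1 kb. The closest pair was on IV, 15471321 to 15471856 and 15472252 to 15472787, at places 71 and 74. Its first region had partners at place 45 in replicate 1 and 499 in replicate 2, and its second at 83 and 124. No group had regions that shared a partner in either replicate. The most common width of replicate regions was 490 bp in replicate 1 and 504 bp in replicate 2. The gap of 395 bp was below these widths, and the next smallest, 551 bp on II, was above them. A region of such width cannot span a wider gap, so outside the closest pair the lack of shared partners does not show separate calls.

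The groups of 3 were on chromosomes I and III. On I, the regions from 1835287 to 1842431 stood at places 129, 173 and 162, and from left to right their partners stood at places 113, 899 and 165 in replicate 1 and at 439, 63 and 565 in replicate 2. The middle region was thus the weakest of the 3 in replicate 1 and the strongest in replicate 2. On III, the regions from 8795511 to 8802355 stood at places 240, 216 and 84, with partners at 191, 520 and 104 in replicate 1 and at 314, 146 and 129 in replicate 2. The other group on III, from 13060867 to 13070881, stood at places 184, 117 and 57, with partners at 124, 111 and 47 in replicate 1 and at 559, 603 and 131 in replicate 2. In both groups on III the region on the right was the best placed in both replicates.

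Across all 19 groups, the best placed region was the same in both replicates in 9 and differed in 10. Within the first 50 places stood 2 of the 41 grouped regions and 23 of the 170 lone ones, while the median place was 173 for grouped and 170 for lone regions. A replicate 2 partner that passed a q value of 0.05 was present for 35 of 41 grouped regions (85.4%) and 121 of 170 lone ones (71.2%). The replicate 1 shares were 34 of 41 (82.9%) and 147 of 170 (86.5%). These differences were not tested.

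The third question was how the regions stood in the 2 replicates. All 211 had a partner in replicate 1 and 209 had one in replicate 2. A q value of 0.05 was passed by the partners of 181 regions in replicate 1 (85.8%, interval 80.4 to 89.9%) and of 156 in replicate 2 (73.9%, 67.6 to 79.4%). Among all regions of a replicate list on I to IV such a q value was reached by 4.88% in replicate 1 and 2.70% in replicate 2. Because the same ChIP samples made the combined list, shares above that level follow from its making. Both replicates gave such a q value for 129 regions (61.1%), replicate 1 alone for 52, replicate 2 alone for 27 and neither for 3.

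Against X and V the strength of the partners did not pass the tests. In replicate 1 the share of 85.8% on I to IV stood beside 94 of 100 joined regions on X and V (94.0%, 87.5 to 97.2%), a difference of −8.22 points (Fisher's exact test, two-sided, unadjusted p = 0.0371, adjusted p = 0.445). In replicate 2 the 73.9% on I to IV stood beside 76 of 100 on X and V (76.0%, 66.8 to 83.3%), a difference of −2.07 points (Fisher's exact test, adjusted p = 1.0). Among the 4 chromosomes the replicate 2 share was 73.7% on I, 69.8% on II, 73.0% on III and 81.6% on IV. Chromosome IV stood 9.32 points above the other 3, which did not pass Fisher's exact test (unadjusted p = 0.308, adjusted p = 1.0). These tests count regions, which are not replicates of the experiment.

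The same ChIP samples made the combined places, so an early combined place brings early partner places and low q values by itself, and the values by place are a description only. In the first 50 places of the combined list the partners stood at places 12 to 92 in replicate 1 (median 35) and 11 to 279 in replicate 2 (median 49), and all 25 passed a q value of 0.05 in each of them. At places 101 to 200, 70 of 71 partners in replicate 1 and 51 of 71 in replicate 2 had such a q value. At places 201 to 322 these were 53 and 47 of 81. Over the 209 regions with both partners Spearman's rho of the places was 0.309, a description across regions that share both samples. It was 0.120 on I, 0.111 on II, 0.499 on III and 0.512 on IV, against 0.780 on X and 0.339 on V (0.659 over both). Of the first 50 places, regions on III and IV held 11 and 9 and those on I and II held 3 and 2. Regions on X held 22 and those on V held 3. A link between early places and rho was not tested.

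**Figure D4:**
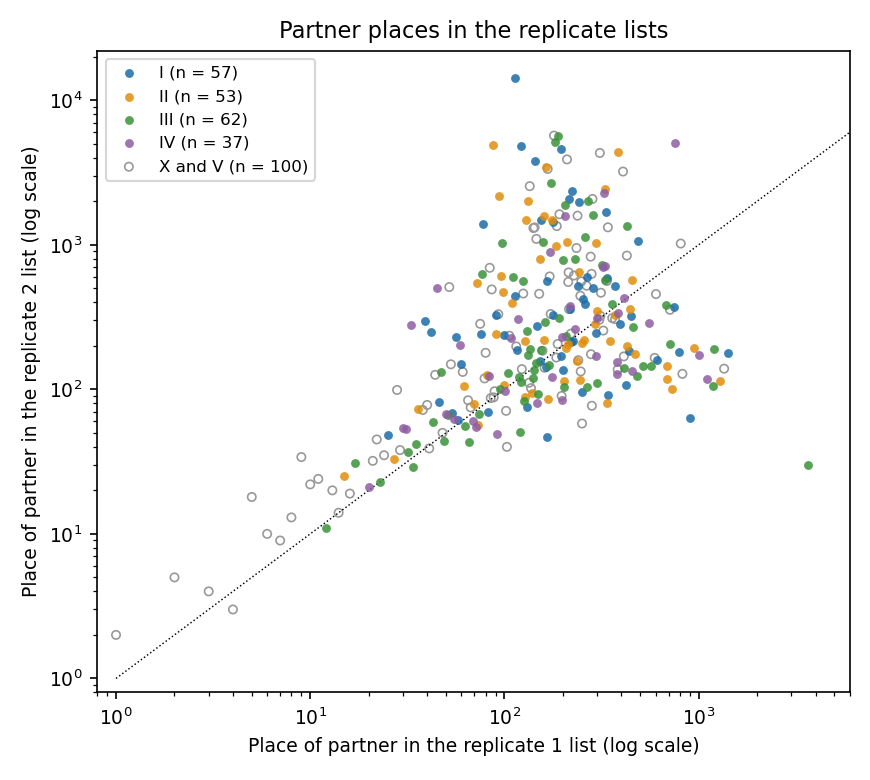
Place of the partner in the replicate 2 list against its place in the replicate 1 list (both log scales, 1 is the best placed) for the 209 regions on I to IV with both partners, coloured by chromosome, and the 100 on X and V as open circles. The dotted line marks equal places, and the partners on I to IV reach place 3671 in replicate 1 and place 14183 in replicate 2.

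The regions on which the replicates differed most were mostly of middle or late place. This is a description only, because the same ChIP samples made the combined places. The largest ratio in favour of replicate 2 was at III 1921148 to 1921683, at place 95 of the combined list, whose partner stood at place 3671 in replicate 1 (q = 0.855) and at place 30 in replicate 2 (q = 0.00212). It forms a pair with a region 3379 bp to its right, at place 56, whose partners stood at places 74 and 68. The others of this kind were I 1836603 to 1837138 (899 in replicate 1 and 63 in replicate 2), II 3808145 to 3808680 (1294 and 114), III 10844611 to 10845146 (1190 and 106) and IV 8432691 to 8433226 (1107 and 117). None of the partners of these 5 regions in replicate 1 passed a q value of 0.05.

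In the other direction, I 9619735 to 9620270 at place 196 had partners at place 114 in replicate 1 (q = 0.00185) and place 14183 in replicate 2 (q = 0.914). Its neighbour 5544 bp to the right, at place 150, had partners at place 343 in replicate 1 and 91 in replicate 2. The next were II 6348172 to 6348707 (87 in replicate 1 and 4865 in replicate 2), I 12039644 to 12040179 (121 and 4810), III 11035926 to 11036461 (189 and 5654) and III 3067828 to 3068363 (183 and 5125). III 2597009 to 2597544 at place 235 and IV 7791144 to 7791679 at place 318 had no partner in replicate 2, although their partners in replicate 1 stood at places 110 and 205. With places taken as they stand, a ratio above 10 was found in 17 regions with the weaker partner in replicate 2 and in 4 with the weaker partner in replicate 1. The replicate 2 list is 2.58 times as long and leaves more room for late places. With each place as a share of its nuclear list, a scale added after the values were seen, the counts were 6 with the weaker partner in replicate 2 and 17 with the weaker partner in replicate 1, so that the direction turned with the scale. The change of scale moves every ratio by the same factor of 2.58, so neither pair of counts shows in which replicate partners were weaker.

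Partners overlap by definition, and the same ChIP samples made the combined list. Short distances between centres thus follow in part from how partners and regions were picked. The centre of a region lay a median of 22.0 bp from that of its replicate 1 partner and 29.0 bp from that of its replicate 2 partner, and within 50 bp for 165 regions in replicate 1 and 154 in replicate 2. The largest distances were 337 bp in replicate 1 and 409 bp in replicate 2. For regions narrower than 536 bp the medians were 9.25 bp in replicate 1 and 10.8 bp in replicate 2, and for regions of 536 bp they were 23.0 and 30.0 bp. Within the first 50 places, where 14 of the 18 narrow regions stood, the medians were 10.0 and 15.0 bp in replicates 1 and 2. At places 201 to 322 they were 38.0 and 35.0 bp, so the contrast by width is mixed with place. More than 1 replicate region overlapped the combined region in 48 cases in replicate 1 and 60 in replicate 2.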

How the data were processed

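A combined list and a list for each ChIP sample were used, with positions on WormBase WS220 per the file headers. The source column of the combined list reads spp_via_IDR, which stands for SPP, a peak caller, and for filtering by irreproducible discovery rate. How reads were aligned, which thresholds applied, and how input and replicates were used is not given in the sources used here. The deposited score of each region was read as a −log10 q value. No header states this unit: the highest score of each replicate list equals −log10(1/(2k − 1)) with k its tied regions, while for the combined list that formula would need 244 such regions and it has 230. Lists hold no read counts, so the depth is unknown. No values of the input samples were used.

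Overlapping combined rows were joined, keeping the best place and score. Shares have 95% Wilson intervals, which cover counting error only. The 12 two-sided Fisher's exact tests count joined regions and were adjusted together by the Benjamini-Hochberg method. None measures the spread between samples. Distances to start sites and gene lists were not run for want of a WS220 annotation. Regions named are the 20 best placed, groups of 3 or more, those with no partner and the 5 largest ratios of places in each direction; other pairs and stretches named were chosen after their values were seen. Members, lists and tests were chosen with earlier results of these data known. Scripts were tested on simulated data and used Python 3.11.15, numpy 2.4.6, pandas 2.3.3, scipy 1.17.1, statsmodels 0.14.6 and matplotlib 3.10.9.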

Additional observations from a re-analysis of the deposited data

How the results depend on the processing

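In none of the 58 alternative tests did a share pass Fisher's exact test after adjustment (lowest adjusted p = 0.0544, 4 with an unadjusted p under 0.05), and 0 of the 12 reported tests did (1 with an unadjusted p under 0.05). Most differences were small, and 17 changed sign, each with an adjusted p of 0.704 or more. For the middle share, with the middle 33.3% in place of the middle 50% they were 6.90 points for I, −1.63 for III and −6.69 for IV against the other 3 chromosomes. With unmerged rows they were 1.59 for II and −0.90 for III. In the better-ranked 50% they were 0.65 for I, 9.15 for II, −3.57 for III and −6.17 for IV. I to IV against X only gave 6.79 points, against −5.50 with X and V. For the replicate 2 partner, they were 0.55 for I with unmerged rows, 2.60 for I in the better-ranked 50%, and at a q value of 0.01 they were 0.29 for II and 10.6 for III. The share at the highest score was 0.51 points above that of V only. With the strongest regions of a single replicate in place of the combined list, the middle share differed between I to IV and X and V by 0.11 to 2.22 points, from −2.15 to −0.97 for I, −9.22 to −5.10 for II, 0.56 to 2.63 for III and 6.70 to 7.80 for IV. Regions with a neighbour within 10 kb were 31 to 33 in these lists and 10 in the better-ranked 50%, which has fewer regions, against 41. The median distance to the replicate 1 partner was 14.0 bp in the better-ranked 50%, against 22.0 bp. The cause of these changes was not tested otherwise. The share of the last 25% section, added after the positions were seen, ran from 28.3 to 33.6% over its alternatives. With places as shares of the list length, also added afterwards, regions with a ratio of places above 10 numbered 6 in place of 17 with the weaker partner in replicate 2, and 17 in place of 4 with the weaker partner in replicate 1. No paired analysis was possible because the tests compare chromosomes and not samples, and no list of the input samples was among those analysed here.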
